A study of Mus musculus with 15 samples.

Results

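The genes described here are 6 genes grouped around thymic egress and retention by Cd69: Cd69, S1pr1, Klf2, Itgb7, Il7r and Foxo1. Not all of them are known to control whether a developing T cell leaves the thymus. They were chosen by their symbols, as the rows whose probe annotation names exactly that gene, and they are 6 of the 19938 genes with a single symbol on the array. Each was measured by 1 probe set: 10548333 for Cd69 on chromosome 6, 10501586 for S1pr1 on chromosome 3, 10572800 for Klf2 on chromosome 8, 10432957 for Itgb7 and 10427628 for Il7r on chromosome 15, and 10491962 for Foxo1 on chromosome 3. The measurements are Affymetrix Mouse Gene 1.0 ST arrays of total RNA from whole thymus, 1 array per mouse, given as log2 values. All mice were females aged 5 weeks, killed 2 h after an intravenous dose of 0.5 µg peptide.

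There were 4 groups: NOD.LCMV mice given the peptide gp33 (n = 3), NOD.LCMV mice given a control peptide that binds Db (n = 3), NOD.Ln82-LCMV mice given gp33 (n = 5) and NOD.Ln82-LCMV mice given the Db control peptide (n = 4). gp33 is a peptide of the lymphocytic choriomeningitis virus glycoprotein that the class I molecule Db presents to CD8 T cells. Every mouse therefore received a Db-binding peptide, and all 4 groups carry the LCMV part of the strain name. The labels say neither what that part is nor what the Ln82 segment holds, and they name no batches, so strain and any processing difference that ran with it cannot be told apart. The series is titled after Nfkbid, an atypical IκB protein gene, and asks about the impaired removal of CD8 T cells in the thymus of the diabetes-prone NOD strain.

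A thymocyte that has finished maturation leaves the thymus along a gradient of sphingosine-1-phosphate, a lipid that is abundant in blood and that it senses with the receptor S1pr1. The transcription factor Foxo1 induces Klf2, and Klf2 induces S1pr1. When the T-cell receptor is engaged, Akt signalling moves Foxo1 out of the nucleus, while Cd69 appears on the surface, binds S1pr1 and has it taken up and degraded, which holds the cell in the tissue. Itgb7 is an integrin chain that pairs with Itga4 or Itgae and serves homing to and residence in mucosal tissue, and Il7r, another Foxo1 target, is the receptor chain for the survival cytokine interleukin-7.

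The median log2 value per array lay between 7.59 and 7.67, which the normalization brings close together, and the lowest correlation between any pair of arrays in a group, over probe sets, was 0.9904. Array weights estimated by limma, which are low for arrays that scatter from their group, ran from 0.282 (NOD.Ln82-LCMV gp33 replicate 5) to 2.758 (NOD.Ln82-LCMV Db replicate 3). The number of arrays limits the precision. Markers of thymocytes were bright on every array, with a mean over 13 measured markers between 10.95 and 11.72. Among the 19938 genes the mean level of Cd69 stood at percentile 96.5, that of Foxo1 at 81.4, Il7r at 80.9, Klf2 at 66.0, Itgb7 at 64.0 and S1pr1 at 62.5. Levels of different probe sets were not set against each other beyond this placement, since probes differ in their response.

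After gp33 in NOD.LCMV mice the retention gene Cd69 rose about 4-fold within 2 h, while S1pr1, Itgb7 and Foxo1 fell to between 0.554 and 0.64 of their level with the control peptide. Klf2 and Il7r did not pass the test. In NOD.Ln82-LCMV mice Cd69 rose 1.38-fold and none of the other 5 genes passed. A gene is called here at a limma adjusted p under 0.05 over all 19938 genes. In NOD.LCMV mice 4 of the 6 genes were called, 1 higher and 3 lower, against 19.8% of the whole gene set (7.29% in the higher and 12.5% in the lower direction). In NOD.Ln82-LCMV mice Cd69 was the only gene called of all genes tested, which is 0.00502% of them, although 1190 genes had an unadjusted p under 0.05 (5.97%).

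**Figure D1:**
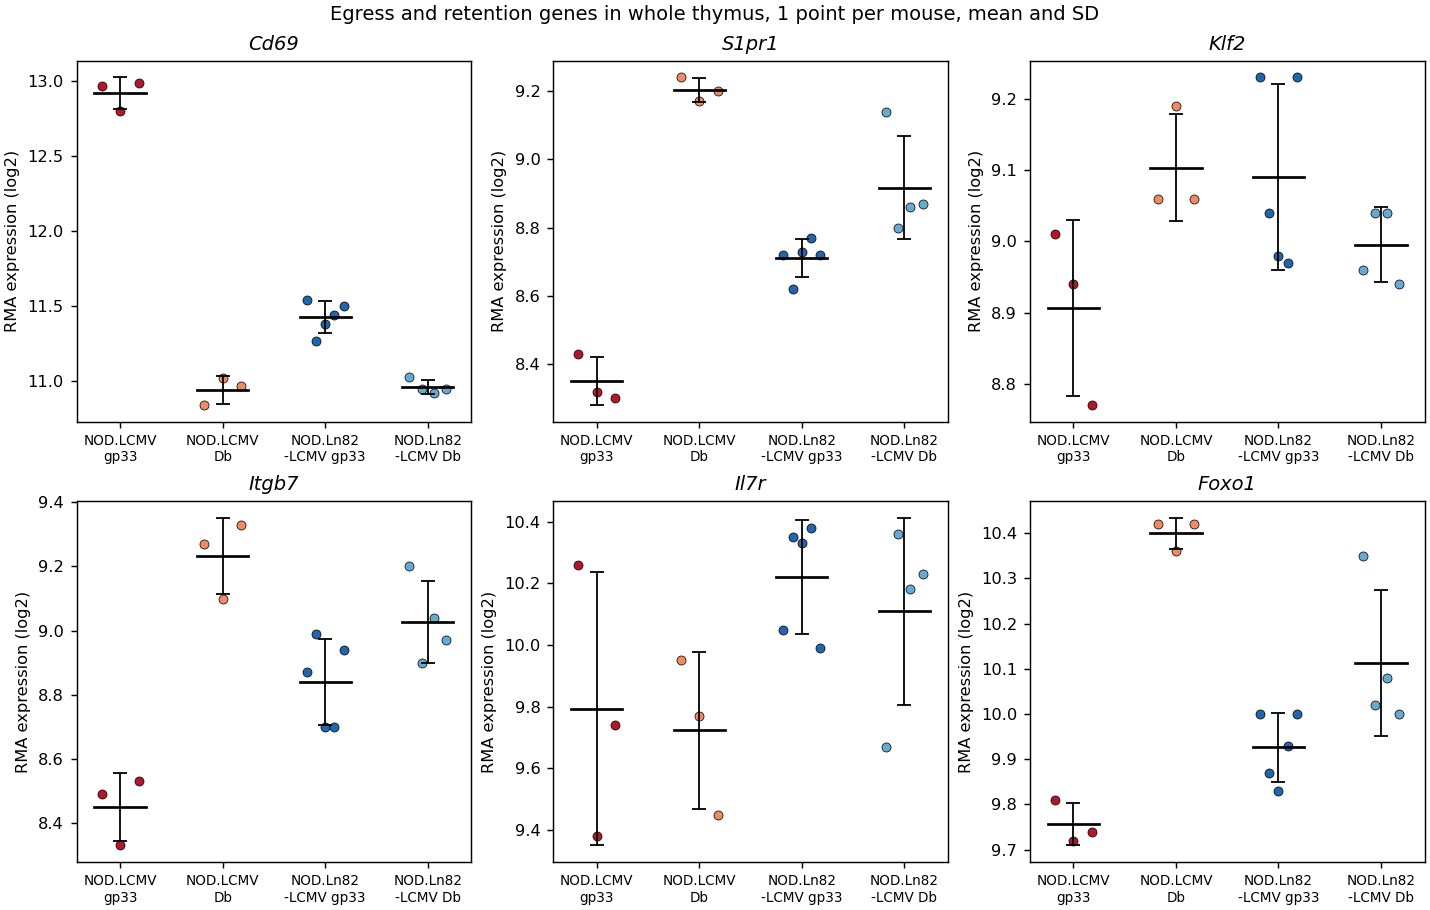
Log2 expression of the 6 genes in each mouse (points), with the group mean (bar) and SD (whiskers). On vertical axes that differ between panels and do not start at 0, the 3 NOD.LCMV gp33 mice lie between 12.80 and 12.99 for Cd69, above every other mouse, and between 8.30 and 8.43 for S1pr1, below every other mouse.

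Cd69, a C-type lectin of early activation, measured 12.97, 12.80 and 12.99 in NOD.LCMV mice given gp33, against 10.84, 11.02 and 10.97 in NOD.LCMV mice given the control peptide. The groups were far apart, by more than any spread within them. The log2 difference was 1.98 ± 0.07 (SE), so that Cd69 rose 3.94-fold (95% interval 3.54 to 4.38, adjusted p = 1.07e-10). An exact two-sided permutation test of the group means gave p = 0.1, the smallest that 3 mice against 3 allow.

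In NOD.Ln82-LCMV mice Cd69 measured 11.54, 11.27, 11.38, 11.44 and 11.50 after gp33, against 11.03, 10.95, 10.92 and 10.95 after the control peptide. All 5 mice given gp33 were above all 4 given the control peptide. The difference was 0.46 ± 0.06, a 1.38-fold rise (95% interval 1.26 to 1.5), with an adjusted p of 0.0215 and an exact permutation p of 0.00794, the smallest possible for these group sizes. The adjusted p did not stay under 0.05 in every setting. It was 0.0584 with median centring and 0.119 with only these groups in the fit, and leaving out any of 7 of the 9 NOD.Ln82-LCMV mice (Db replicates 2, 3 and 4, gp33 replicates 1, 3, 4 and 5) put it between 0.0582 and 0.12, with the difference itself between 0.43 and 0.47 in those fits.

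The rise of Cd69 was larger in NOD.LCMV by 1.51 ± 0.09 on the log2 scale (adjusted p = 8.45e-08). With the control peptide the strains differed in Cd69 by -0.02 ± 0.07 (adjusted p = 0.924), with a 95% interval from -0.16 to 0.12. After gp33 Cd69 was 2.82-fold higher in NOD.LCMV than in NOD.Ln82-LCMV (1.49 ± 0.06, adjusted p = 5.78e-10, exact permutation p = 0.0179, the smallest possible). The order of the group means was NOD.LCMV gp33, then NOD.Ln82-LCMV gp33, then both control groups, whose values overlapped.

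Other early activation genes accompanied Cd69. Of 20 measured, 18 rose in NOD.LCMV after gp33 and none fell, against 7.29% and 12.5% of all genes. Their median log2 difference was 1.56, against a median of -0.03 over all genes. Nr4a3, an orphan nuclear receptor gene induced by T-cell receptor signals, rose by 4.02 ± 0.24 (adjusted p = 1.55e-08), and Irf4, a transcription factor gene that scales with receptor signal strength, rose by 3.61 ± 0.14 (adjusted p = 2.27e-10). In NOD.Ln82-LCMV the same 20 genes had a median difference of 0.19 and none was called. There Nr4a3 differed by 0.89 ± 0.20 (adjusted p = 0.357) and Tagap, a GTPase-activating protein gene of activated T cells, by 1.14 ± 0.18 (adjusted p = 0.0717).

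Nfkbid itself measured 11.43, 11.53 and 11.44 in NOD.LCMV mice after gp33, against 9.33, 9.27 and 9.40 after the control peptide. The groups did not overlap, and the difference was 2.13 ± 0.11 (adjusted p = 4.05e-09). In NOD.Ln82-LCMV mice Nfkbid measured 9.73, 9.44, 9.37, 9.61 and 9.91 after gp33, against 9.08, 9.06, 9.33 and 9.27 after the control peptide. These groups did not overlap either, by a narrow gap, and the difference was 0.43 ± 0.09 (adjusted p = 0.303, exact permutation p = 0.0159).

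Measured by the root mean square difference of centred log2 profiles over all 15 arrays, the genes nearest to Cd69 were Rel (0.141), Relb (0.143) and Bcl3 (0.146). Rel and Relb encode NF-κB subunits and Bcl3 an atypical IκB protein. Rel rose by 1.74 ± 0.09 in NOD.LCMV (adjusted p = 1.85e-09), and it differed by 0.35 ± 0.07 in NOD.Ln82-LCMV (adjusted p = 0.219).

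**Figure D2:**
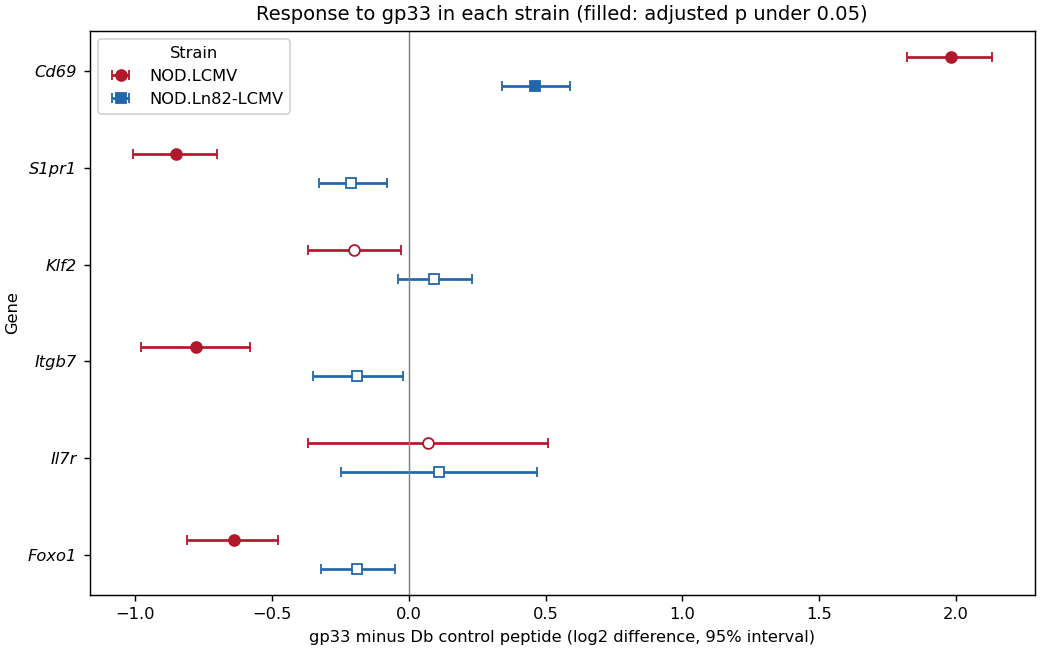
Log2 difference between gp33 and the Db control peptide for each gene in NOD.LCMV (circles) and NOD.Ln82-LCMV (squares), with 95% intervals; filled symbols have an adjusted p under 0.05. Cd69 lies to the right of 0 in both strains, at 1.98 and 0.46, and S1pr1, Itgb7 and Foxo1 lie furthest to the left in NOD.LCMV.

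S1pr1, the egress receptor, measured 8.43, 8.32 and 8.30 in NOD.LCMV mice given gp33, against 9.24, 9.17 and 9.20 in those given the control peptide. The groups were well separated. The difference was -0.85 ± 0.07, or 0.554 of the control level (95% interval 0.497 to 0.616, adjusted p = 5.92e-07), with an exact permutation p of 0.1, the smallest possible. These are whole-tissue levels, so fewer cells carrying a transcript and less transcript per cell cannot be told apart, for S1pr1 or for any gene below.

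In NOD.Ln82-LCMV mice S1pr1 measured 8.72, 8.62, 8.73, 8.77 and 8.72 after gp33, against 9.14, 8.80, 8.86 and 8.87 after the control peptide. The groups did not overlap, but the gap between them was small and 1 control mouse, replicate 1, stood above the other 3. The difference was -0.21 ± 0.06 (0.867 of the control level, 95% interval 0.794 to 0.947). It did not pass over all genes (adjusted p = 0.623), while the exact permutation p for this gene alone was 0.00794, the smallest possible. In this strain 2 of the 6 genes, Cd69 and S1pr1, had groups that did not overlap, 1 higher and 1 lower, against 1.51% of all genes (0.667% higher and 0.848% lower).

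The response of S1pr1 differed between the strains, being more negative in NOD.LCMV by -0.65 ± 0.09 (adjusted p = 0.000332). The strains already differed with the control peptide, and in the opposite direction to the difference after gp33. With the control peptide S1pr1 was 0.29 ± 0.07 higher in NOD.LCMV than in NOD.Ln82-LCMV (adjusted p = 0.0138, exact permutation p = 0.0571, no overlap). That call was lost without NOD.LCMV Db replicate 1 (adjusted p = 0.055) or replicate 3 (adjusted p = 0.0522), and with only these groups in the fit (adjusted p = 0.0667). After gp33 S1pr1 was lower in NOD.LCMV by -0.36 ± 0.06 (adjusted p = 0.000573, exact permutation p = 0.0179).

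A list was made of other receptors, enzymes, carriers and signalling or uptake proteins of sphingosine-1-phosphate. In NOD.LCMV after gp33, 2 of 17 measured genes rose and 6 fell, against 7.29% and 12.5% of all genes. Their median difference was -0.09. The receptor gene S1pr4 fell by 0.42 on the log2 scale (SE 0.06, adjusted p = 0.000152), and the kinase gene Sphk2, which makes sphingosine-1-phosphate, fell by 0.27 (SE 0.06, adjusted p = 0.00298). Arrb2, an arrestin gene that serves receptor uptake, fell by 0.37 (SE 0.07, adjusted p = 0.000759). Receptor gene S1pr3 rose by 0.59 ± 0.09 (adjusted p = 0.000337), and Plpp3, a lipid phosphatase gene that degrades the ligand, rose by 0.40 ± 0.10 (adjusted p = 0.0104). None of the 17 was called in NOD.Ln82-LCMV.

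S1pr1 is also expressed by endothelium, and some markers of that cell type fell in NOD.LCMV as well. After gp33 in that strain, 4 of 14 endothelial markers fell and none rose, against 12.5% of all genes called lower. Their median difference was -0.20, and 7 were called in the fit with array weights. Pecam1, an adhesion molecule gene that T cells also express, fell by 0.61 on the log2 scale (SE 0.06, adjusted p = 1.22e-06), and Eng, a co-receptor gene of the TGF-β family, fell by 0.91 (SE 0.12, adjusted p = 6.02e-05). The mean over the 14 markers was 7.87 to 7.94 in NOD.LCMV mice given gp33, against 8.05 to 8.29 with the control peptide, and it was 8.05 to 8.23 in NOD.Ln82-LCMV mice given gp33, against 8.09 to 8.23 with the control peptide. None of the 14 was called in NOD.Ln82-LCMV. Between the strains with the control peptide, where S1pr1 differed by 0.29, their median difference was 0.01, with 2 called higher. Log2 values of this kind have no zero, so no marker can be said to be absent. Their part in the fall of S1pr1 was not tested.

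Some markers of mature single-positive thymocytes, the cells that normally leave, fell too. Of 9 measured, 4 fell in NOD.LCMV and none rose, against 12.5% of all genes called lower. The call of Ms4a4b, 1 of these 4, was lost with median centring (adjusted p = 0.0671) and without NOD.LCMV gp33 replicate 2 (adjusted p = 0.164), among other settings. Their mean was 10.81 to 11.15 in NOD.LCMV mice given gp33, against 11.14 to 11.20 with the control peptide, so the groups just overlapped. It was 10.78 to 10.96 in NOD.Ln82-LCMV mice given gp33, against 10.79 to 11.22 with the control peptide, and the highest of these was again Db replicate 1. Of the 13 measured markers that define thymocytes in general, 7 fell in NOD.LCMV, or 4 when NOD.LCMV Db replicate 1, Db replicate 2 or gp33 replicate 2 was left out. Their mean was 10.95 to 11.45 in NOD.LCMV mice given gp33, against 11.48 to 11.66 with the control peptide. The part of these shifts in the falls of S1pr1, Itgb7 and Foxo1 was not tested.

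Itgb7, the β7 integrin chain, measured 8.49, 8.33 and 8.53 in NOD.LCMV mice given gp33, against 9.27, 9.10 and 9.33 in those given the control peptide. No values overlapped. The difference was -0.78 ± 0.09, or 0.581 of the control level (95% interval 0.506 to 0.667, adjusted p = 2.36e-05, exact permutation p = 0.1, the smallest possible).

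In NOD.Ln82-LCMV mice Itgb7 measured 8.87, 8.99, 8.70, 8.70 and 8.94 after gp33, against 9.20, 8.90, 9.04 and 8.97 after the control peptide. The groups overlapped. The difference was -0.19 ± 0.08 (adjusted p = 0.806, exact permutation p = 0.0873). The responses differed by -0.60 ± 0.12 (adjusted p = 0.00545). Between strains Itgb7 differed by 0.21 ± 0.09 with the control peptide (adjusted p = 0.172), and after gp33 it was lower in NOD.LCMV by -0.39 ± 0.08 (adjusted p = 0.00243, exact permutation p = 0.0179).

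Of 19 other integrins, partners and ligands, 3 rose and 8 fell in NOD.LCMV after gp33, against 7.29% and 12.5% of all genes. Their median was -0.08. The largest fall was that of Itgae, the αE chain that pairs with β7 to bind E-cadherin, by 1.15 on the log2 scale (SE 0.18, adjusted p = 0.000322). Itgal, the αL chain of LFA-1, fell by 0.34 (SE 0.08, adjusted p = 0.00698), and Sipa1, an inhibitor gene of the integrin activator Rap1, fell by 0.35 (SE 0.05, adjusted p = 0.000207). Icam1, the gene for an LFA-1 ligand, rose by 1.69 ± 0.07 (adjusted p = 3.32e-10). Itgae also differed between the strains with the control peptide, by 0.71 ± 0.17 (adjusted p = 0.015), and its response differed between the strains by -0.96 ± 0.24 (adjusted p = 0.0191).

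Foxo1, the transcription factor upstream of Klf2, S1pr1 and Il7r, measured 9.81, 9.72 and 9.74 in NOD.LCMV mice given gp33, against 10.42, 10.36 and 10.42 in those given the control peptide. The groups were clearly apart. The difference was -0.64 ± 0.08, or 0.64 of the control level (95% interval 0.571 to 0.717, adjusted p = 2.36e-05, exact permutation p = 0.1, the smallest possible).

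In NOD.Ln82-LCMV mice Foxo1 measured 10.0, 9.87, 9.83, 9.93 and 10.0 after gp33, against 10.35, 10.02, 10.08 and 10.0 after the control peptide. The groups met at their edge, and Db replicate 1 was again the highest. The difference was -0.19 ± 0.06 (0.879 of the control level, adjusted p = 0.719, exact permutation p = 0.0238). The responses differed by -0.46 ± 0.10 (adjusted p = 0.00878). As for S1pr1, the strain difference had opposite signs with each peptide: Foxo1 was 0.29 ± 0.07 higher in NOD.LCMV with the control peptide (adjusted p = 0.0186, exact permutation p = 0.0571), and after gp33 the difference was -0.17 ± 0.07 (adjusted p = 0.0869, exact permutation p = 0.0357). The first of these calls was lost without NOD.LCMV Db replicate 1 or 3 or NOD.Ln82-LCMV Db replicate 2, 3 or 4 (adjusted p between 0.0546 and 0.0779) and with only these groups in the fit (0.0765). The second was made in that fit (0.0418) and without NOD.Ln82-LCMV Db replicate 1 (0.0133).

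Across both strain comparisons, 2 of the 6 genes were called with the control peptide, both higher in NOD.LCMV, where 10.3% of all genes were called (4.77% higher and 5.54% lower). After gp33 it was 3 of 6, 1 higher and 2 lower, where 27.0% were called (10.2% higher and 16.8% lower). The number of genes whose strains did not overlap was 3 of 6 with the control peptide, all higher in NOD.LCMV, against 19.6% of all genes (10.3% higher and 9.36% lower). It was 4 of 6 after gp33, 1 higher and 3 lower, against 26.9% (10.6% higher and 16.3% lower). Of the differences between the responses, 4 of 6 were called, 1 positive and 3 negative, against 8.73% of all genes (4.46% positive and 4.26% negative).

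**Figure D3:**
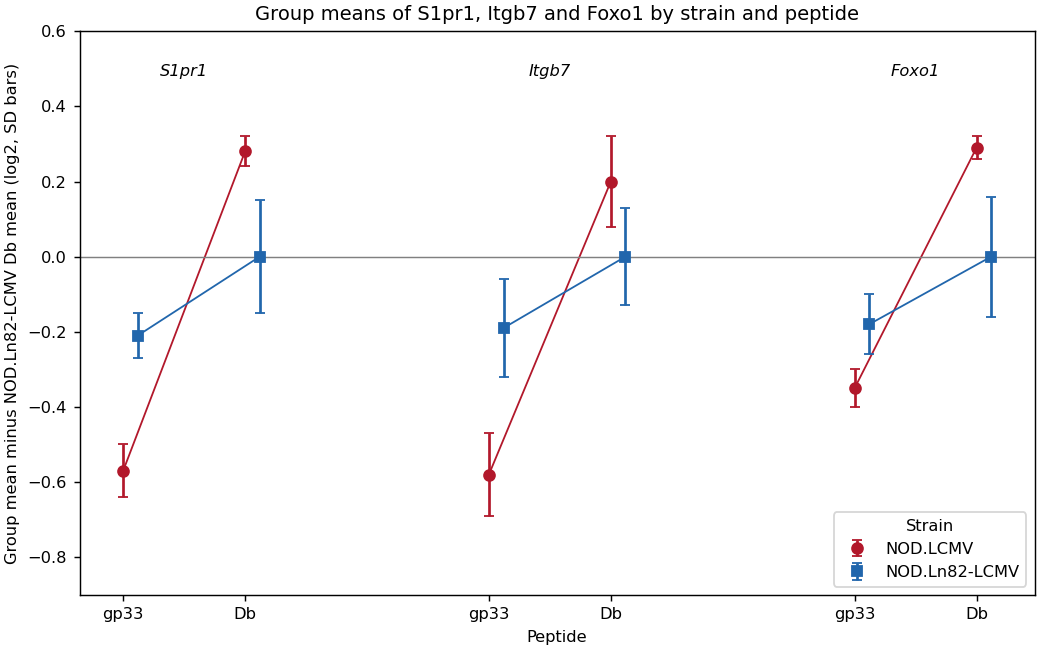
Group means of S1pr1, Itgb7 and Foxo1 with SD whiskers, shown as log2 differences from the NOD.Ln82-LCMV mean with the control peptide, for gp33 (left) and the control peptide (right) of each gene. The lines of the strains cross in all 3 panels: NOD.LCMV means are below NOD.Ln82-LCMV after gp33 and above it with the control peptide, though not every one of these differences passed the test.

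The profiles of S1pr1, Itgb7 and Foxo1 over the 15 arrays were compared with those of all other genes. Foxo1 was the gene at rank 3 by nearness to S1pr1 among 19937 others (root mean square difference 0.095), and Itgb7 was at rank 18 (0.117). By nearness to Itgb7, S1pr1 was at rank 18 and Foxo1 at rank 28 (0.121), and by nearness to Foxo1, S1pr1 was at rank 33 and Itgb7 at rank 127. The nearest to S1pr1 was Rasgrp2 (0.072), an activator gene of Rap1 that is abundant in resting T cells, which fell by 0.76 on the log2 scale in NOD.LCMV (SE 0.07, adjusted p = 2.18e-06). Foxo1 lay nearest to St8sia1 (0.046), a sialyltransferase gene, Arhgef18 (0.057) and Sh2d3c (0.064). Itgb7 lay nearest to Stk10 (0.091), a lymphocyte kinase gene, Fam189b (0.094) and Rap1gap2 (0.096). The profiles share the arrays and their 4 groups, so nearness carries the group differences with it.

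Another list held PI3K and Akt pathway genes, Foxo regulators and other Foxo genes. Of 18 measured, 1 rose and 6 fell in NOD.LCMV, against 7.29% and 12.5% of all genes. The median was -0.10, and none of those called reached a 1.5-fold change. Other Foxo genes fell too, Foxo3 by 0.33 on the log2 scale (SE 0.05, adjusted p = 0.00018) and Foxo4 by 0.28 (SE 0.05, adjusted p = 0.000587), while Foxo6, named here after its values were seen, differed by 0.05 ± 0.08 (adjusted p = 0.797). Among PI3K subunits Pik3r5 fell by 0.46 (SE 0.09, adjusted p = 0.0015) and Pik3r1 by 0.29 (SE 0.07, adjusted p = 0.00642). The kinase gene Sgk1, whose product phosphorylates Foxo factors, rose by 0.25 ± 0.04 (adjusted p = 0.000997).

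Known target genes of Foxo1 and Klf2 in T cells went both ways. Of 16 measured, 3 rose and 7 fell in NOD.LCMV, against 7.29% and 12.5% of all genes. Their median was -0.18. Ccr7, a chemokine receptor gene that guides cells to the medulla and to lymph nodes, fell by 0.65 on the log2 scale (SE 0.15, adjusted p = 0.00491). Sesn1, a stress-induced inhibitor gene of mTORC1, fell by 0.50 (SE 0.08, adjusted p = 0.00043). Bcl2l11, which encodes the pro-apoptotic protein Bim, rose by 1.73 ± 0.11 (adjusted p = 2.19e-08), and it differed by 0.43 ± 0.09 in NOD.Ln82-LCMV (adjusted p = 0.219). Bach2, a repressor gene of effector programmes, rose by 0.87 ± 0.18 (adjusted p = 0.00229). Bach2 was also higher in NOD.LCMV than in NOD.Ln82-LCMV with the control peptide, by 0.86 ± 0.17 (adjusted p = 0.00395), and after gp33, by 1.87 ± 0.16 (adjusted p = 5.01e-07).

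Klf2, the factor between Foxo1 and S1pr1, moved little. It measured 9.01, 8.94 and 8.77 in NOD.LCMV mice given gp33, against 9.06, 9.19 and 9.06 in those given the control peptide. The groups did not overlap, but by a narrow gap. The difference was -0.20 ± 0.08, or 0.873 of the control level, with a 95% interval of 0.776 to 0.982 that leaves out a fall as large as that of S1pr1. The adjusted p was 0.105, and 0.0453 with array weights. With Klf2, 5 of the 6 genes had groups that did not overlap in this strain, where 32.9% of all genes did (10.9% higher and 22.0% lower).

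In NOD.Ln82-LCMV mice Klf2 measured 9.23, 9.04, 8.98, 8.97 and 9.23 after gp33, against 8.96, 9.04, 9.04 and 8.94 after the control peptide. The groups overlapped. The difference was 0.09 ± 0.07 (adjusted p = 0.942, exact permutation p = 0.254). The responses differed by -0.29 ± 0.10 (adjusted p = 0.101). Between the strains Klf2 differed by 0.11 ± 0.07 with the control peptide, without overlap (adjusted p = 0.458, exact permutation p = 0.0286, the smallest possible), and by -0.18 ± 0.07 after gp33 (adjusted p = 0.0727). After gp33 it was called without NOD.LCMV gp33 replicate 1 (-0.24, adjusted p = 0.0469) or without NOD.Ln82-LCMV gp33 replicate 4 (-0.21, adjusted p = 0.0421).

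Of 16 other Krüppel-like factor genes measured, 4 rose and 4 fell in NOD.LCMV, against 7.29% and 12.5% of all genes. A change of at least 1.5-fold was reached by 1 of them, and 8 genes were not called. Klf6, an early response gene, rose by 0.86 ± 0.07 (adjusted p = 5.08e-07) and Klf10, a TGF-β-induced repressor gene, by 0.49 ± 0.09 (adjusted p = 0.00108). Klf3, which in mouse lymphocytes acts as a repressor, fell by 0.53 on the log2 scale (SE 0.08, adjusted p = 0.000128), and Klf13 fell by 0.31 (SE 0.07, adjusted p = 0.00512). The response of Klf6 differed between the strains by 0.89 ± 0.09 (adjusted p = 1.43e-05), and in NOD.Ln82-LCMV it differed by -0.03 ± 0.06 (adjusted p = 0.995). The genes nearest to Klf2 over the arrays were Gfra4 (0.048), Mutyh (0.057) and Tpst2 (0.067), of which Mutyh, a DNA repair glycosylase gene, fell by 0.22 in NOD.LCMV (SE 0.06, adjusted p = 0.0204).

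Promoter sequences are shown for 4 of the genes, to set Itgb7 and Foxo1, which fell together, beside Klf2 and Il7r, which were not called. RefSeq promoters of build GRCm38.p6 were matched by Entrez gene identifier for Klf2, Itgb7, Il7r and Foxo1. For Cd69 and S1pr1 the same match found no sequence in the promoter set used here. Each sequence is the 250 bases before the start of the gene, 5′ to 3′ on the strand of the gene, with capitals for matches to the Krüppel-like factor motif CCNCNCCC or the Foxo motif GTAAACA on either strand.
Itgb7, chr15:102231936-102232185, minus strand: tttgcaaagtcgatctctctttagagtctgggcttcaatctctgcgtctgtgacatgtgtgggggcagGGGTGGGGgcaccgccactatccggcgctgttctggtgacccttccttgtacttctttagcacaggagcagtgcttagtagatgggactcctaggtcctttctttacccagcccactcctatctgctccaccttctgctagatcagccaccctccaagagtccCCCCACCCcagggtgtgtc
Foxo1, chr3:52268087-52268336, plus strand: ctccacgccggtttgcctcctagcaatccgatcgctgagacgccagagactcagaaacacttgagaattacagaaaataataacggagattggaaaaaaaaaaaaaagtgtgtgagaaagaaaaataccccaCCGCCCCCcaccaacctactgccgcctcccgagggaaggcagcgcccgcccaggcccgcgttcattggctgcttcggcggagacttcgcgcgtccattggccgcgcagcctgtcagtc
Klf2, chr8:72318812-72319061, plus strand: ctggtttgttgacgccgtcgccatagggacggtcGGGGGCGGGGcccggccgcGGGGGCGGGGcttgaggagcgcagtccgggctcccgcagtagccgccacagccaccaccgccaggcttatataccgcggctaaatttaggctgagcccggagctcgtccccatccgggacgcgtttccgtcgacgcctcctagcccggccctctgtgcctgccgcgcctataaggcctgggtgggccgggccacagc
Il7r, chr15:9529877-9530126, minus strand: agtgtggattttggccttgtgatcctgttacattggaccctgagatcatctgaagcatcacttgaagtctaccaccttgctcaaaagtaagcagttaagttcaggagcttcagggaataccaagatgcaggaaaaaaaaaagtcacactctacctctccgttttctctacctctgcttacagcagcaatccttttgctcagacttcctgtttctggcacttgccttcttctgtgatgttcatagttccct

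The Krüppel-like factor motif matched in the windows of Itgb7, Foxo1 and Klf2 and in 45.9% of 32851 RefSeq promoters of the same length. Klf2 held 4 matches, which overlap pairwise in 2 G-rich runs, and its window was 71.2% G or C, against 56.0% for Itgb7 and Foxo1, 44.0% for Il7r and a median of 52.4% over all promoters. The MEF2 motif matched in Klf2 (3.2% of promoters), the Egr motif GNGTGGGNG in Itgb7 (12.7%), where 2 of its 3 matches overlap a Krüppel-like factor match, the NFAT motif TGGAAA in Foxo1 (18.6%) and the ETS motif NNGGAAGT in Il7r (19.5%). The Foxo motif (3.2%), the AP-1 motif TGANTCA (6.7%) and the NF-κB motif (4.6%) had no match in these 4 windows. A match describes letters and is not a binding site, and a missing match says nothing of the factor.

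Il7r showed no response to gp33 that could be told from its spread. It measured 10.26, 9.38 and 9.74 in NOD.LCMV mice given gp33, against 9.95, 9.77 and 9.45 in those given the control peptide. The groups overlapped, and each spanned more than any other of the 6 genes did in its group. The difference was 0.07 ± 0.21 (95% interval 0.773- to 1.42-fold, adjusted p = 0.905), and it changed sign with single mice, from -0.16 without NOD.LCMV gp33 replicate 1 to 0.28 at the other end.

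In NOD.Ln82-LCMV mice Il7r measured 10.05, 10.35, 10.33, 10.38 and 9.99 after gp33, against 9.67, 10.36, 10.18 and 10.23 after the control peptide. The groups overlapped, and Db replicate 1, the highest of its group for S1pr1, Itgb7 and Foxo1, was the lowest for Il7r. The difference was 0.11 ± 0.17 (adjusted p = 0.995), and the responses differed by -0.04 ± 0.27 (adjusted p = 0.967). Il7r was lower in NOD.LCMV than in NOD.Ln82-LCMV by -0.39 ± 0.19 with the control peptide (adjusted p = 0.261) and by -0.43 ± 0.18 after gp33 (adjusted p = 0.109), and neither passed. Without NOD.LCMV gp33 replicate 1 the second was -0.66 and passed (adjusted p = 0.0144).

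The spread of Il7r ran alongside that of B cell markers, and in part alongside that of other marker lists. The gene nearest to Il7r over the 15 arrays was Blnk (0.104), a B cell adaptor gene, ahead of the interferon-induced genes Ifit1 (0.119) and Irf7 (0.125). The mean over 9 measured B cell markers was 7.97, 7.56 and 7.63 in NOD.LCMV mice given gp33, against 8.30, 7.88 and 7.47 in those given the control peptide. Both NOD.LCMV groups ranked their mice in the same order by Il7r as by this mean. In NOD.Ln82-LCMV mice the mean was 8.48, 8.48, 8.67, 8.74 and 8.29 after gp33, against 7.76, 8.62, 8.37 and 8.48 after the control peptide. The lowest and the highest mouse by Il7r were also the lowest and the highest by this mean in both of these groups. The mean over 14 dendritic cell and macrophage markers also followed the order of Il7r in both NOD.LCMV groups. It was 8.61, 8.46 and 8.56 after gp33, against 8.72, 8.71 and 8.63 after the control peptide. In both NOD.Ln82-LCMV groups it shared the lowest mouse with Il7r but not the highest.

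None of the 9 B cell markers was called in the response of either strain, while 5 were lower in NOD.LCMV than in NOD.Ln82-LCMV after gp33 (8 without NOD.LCMV gp33 replicate 1, and 8 with only the groups compared). Cd79b, a chain of the B cell receptor, differed there by -1.30 ± 0.18 (adjusted p = 5.19e-05). The part of B cell content, or of other cell types, in the level of Il7r was not tested.

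A further list held ligands, receptor chains, kinases and downstream genes of interleukin-7 signalling. In NOD.LCMV after gp33, 10 of 16 measured genes rose and 1 fell, against 7.29% and 12.5% of all genes. Their median was 0.26, although Il7r itself was not called. When single mice were left out, 8 to 11 genes of this list were called. The genes with the largest rises encode feedback inhibitors and a kinase that many cytokine and antigen receptors induce. Cish rose by 1.91 ± 0.09 (adjusted p = 1.27e-09), Socs3 by 1.36 ± 0.09 (adjusted p = 3.56e-08), Socs1 by 0.96 ± 0.11 (adjusted p = 1.22e-05) and the kinase gene Pim1 by 1.70 ± 0.07 (adjusted p = 3.97e-10). Jak1, a kinase gene of the receptor itself, fell by 0.20 on the log2 scale (SE 0.05, adjusted p = 0.00501). In NOD.Ln82-LCMV the median was 0.02 and none was called, with Cish at 0.11 ± 0.07 (adjusted p = 0.93) and Socs3 at 0.00 ± 0.07 (adjusted p = 0.998). The response of Cish differed between the strains by 1.80 ± 0.12 (adjusted p = 1.27e-07).

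Other genes of thymocyte egress and migration also went both ways in NOD.LCMV. Of 19 measured, 6 rose and 7 fell, against 7.29% and 12.5% of all genes. Their median was -0.16. Gpr183, an oxysterol receptor gene that positions lymphocytes, rose by 1.84 ± 0.13 (adjusted p = 8.06e-08). Ptger4, a prostaglandin E2 receptor gene, rose by 0.91 ± 0.05 (adjusted p = 1.4e-08). Ccr9, the gene for the receptor of the thymic chemokine Ccl25, fell by 0.40 on the log2 scale (SE 0.07, adjusted p = 0.000732), Stk4, a kinase gene needed for thymocyte egress in mice, by 0.34 (SE 0.05, adjusted p = 0.000393), and Coro1a, an actin regulator gene needed for egress in mice, by 0.32 (SE 0.07, adjusted p = 0.00283). No gene of this list was called in NOD.Ln82-LCMV. Some genes stand in more than 1 of the lists described here, among them Ccr7, Ccr9, S1pr4 and Klf3.

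**Figure D4:**
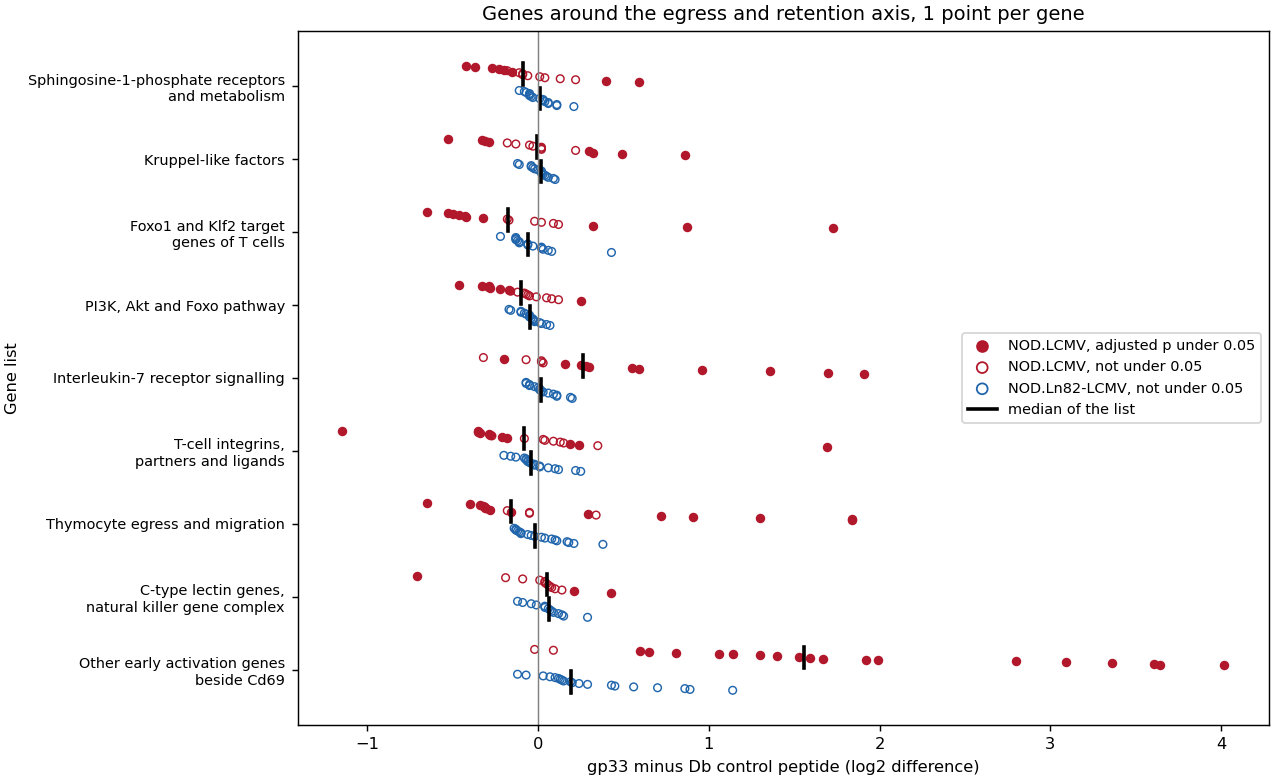
Log2 difference between gp33 and the control peptide for every measured gene of 9 lists (rows), in NOD.LCMV (upper points of a row) and NOD.Ln82-LCMV (lower points), with filled points for an adjusted p under 0.05 and black bars for list medians. In NOD.LCMV the early activation genes have a median of 1.56, the lists around S1pr1, Foxo1 and Itgb7 have medians from -0.18 to -0.08, and no list gene is called in NOD.Ln82-LCMV.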

How the data were processed

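Whole thymus of 15 mice was profiled, with 1 array each. The authors deposited log2 values, made with RMA in Affymetrix Expression Console 1.1, per the submitters' processing notes, and no further normalization was applied. RMA equalizes probe intensities between arrays, so a shift shared by most genes would not show. Of 35556 probe sets, the platform annotation names 23410: 21789 with 1 symbol, reduced to 19938 genes by the probe set with the highest mean, and 1621 with several, which were left out with the 12146 without annotation. The build of that annotation is not given in the sources used here.

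The 15 arrays were fitted together with limma 3.58.1 under R 4.3.3, using a separate mean for each group and moderated variances (11 residual and 14.9 median total degrees of freedom). Tests were two-sided, and calls required p under 0.05 after Benjamini-Hochberg adjustment across the 19938 genes. Group means of single genes were also compared by exact permutation. Between strains, NOD.Ln82-LCMV was subtracted from NOD.LCMV. Nothing in the labels beyond the sample names says how the mice relate, and p-values measure the spread between these samples. The model was tested on simulated data. The members and gene lists were chosen with earlier results of these data known, so counts over them are descriptions.

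Named genes are the 6 members, Nfkbid, per list up to 4 higher and 4 lower genes with the largest difference called in NOD.LCMV and up to 3 called in other comparisons, per member the 3 genes with the nearest profile, and called genes among 5 neighbours on each side. Predicted, clone-named, small RNA, olfactory or vomeronasal receptor and antigen receptor segment genes were left out of the nearest profiles. Not all genes that the rule allows are named. Alternatives tried were median centring or a second quantile normalization of the values, a test without the dimmest 33.3% of genes, averaging a gene's probe sets or testing each of them, array weights, a variance trend, fits of only the groups compared, a replicate block, a limit of 1.5-fold, and leaving out each array. List genes with no probe set of 1 symbol were not analysed here.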

Additional observations from a re-analysis of the deposited data

Results flagged for a closer look

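Of the 6 genes, 4 responded to gp33 differently in the NOD.LCMV and NOD.Ln82-LCMV strains by the test of that difference (limma, adjusted over all genes). The response in NOD.LCMV minus that in NOD.Ln82-LCMV was 1.51 ± 0.09 on the log2 scale for Cd69 (adjusted p = 8.45e-08), -0.65 ± 0.09 for S1pr1 (adjusted p = 0.000332), -0.60 ± 0.12 for Itgb7 (adjusted p = 0.00545) and -0.46 ± 0.10 for Foxo1 (adjusted p = 0.00878). For these 4 genes the estimated response had the same sign in both strains and was larger in NOD.LCMV. In NOD.Ln82-LCMV the responses of S1pr1, Itgb7 and Foxo1 were not called (limma adjusted p = 0.623, 0.806 and 0.719). Such a difference was called for 8.73% of all genes.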

How the results depend on the processing

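The count of called members in NOD.LCMV after gp33 was 4 in every fit that left out a mouse and 4 to 5 under the other alternatives. In NOD.Ln82-LCMV the count of 1 (Cd69) was 0 with median centring, with only the groups compared, with the replicate block and with a limit of 1.5-fold, and 0 to 1 without single mice. For the difference between the responses it was 4 without any single mouse and 3 with a limit of 1.5-fold. Between strains with the control peptide the count of 2 was 0 with only the groups compared and 0 with the 1.5-fold limit, and 0 to 2 without single mice. Between strains after gp33 the count of 3 was 1 with the 1.5-fold limit and 3 to 5 without single mice. Signs turned only for values near 0. The Il7r difference between the responses was 0.08 with array weights and 0.02 with median centring, and -0.27 to 0.17 without single mice. The Il7r response without single mice was -0.16 to 0.28 in NOD.LCMV and -0.04 to 0.19 in NOD.Ln82-LCMV. The strain difference of Cd69 with the control peptide was 0.02 with array weights and -0.06 to 0.03 without single mice. Of the member values under alternatives, 701 kept direction and call, 25 lost the call, 6 gained it and 12 turned sign. With the 1.5-fold limit, called genes in NOD.LCMV after gp33 numbered 18 of 18 in the early activation list, but 1 of 8 for sphingosine-1-phosphate, 1 of 8 for Krüppel-like factors, 3 of 10 for Foxo1 and Klf2 targets, 0 of 7 for PI3K, Akt and Foxo, 5 of 11 for interleukin-7 signalling, 2 of 11 for integrins, 6 of 13 for egress and migration and 1 of 3 for lectins. For markers they numbered 1 of 7 for thymocytes (4 with only the groups compared), 1 of 4 for mature single-positive cells, 2 of 4 for endothelium, 2 of 4 for dendritic cells and macrophages, 3 of 5 for natural killer and innate lymphoid cells and 1 of 3 for epithelium.

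No pairing of the mice by replicate number was seen in NOD.Ln82-LCMV. Deviations from group means correlated between same-numbered mice at 0.117, 0.008, -0.05 and -0.226. Only Db replicate 1 had its highest correlation with its own number, and no gp33 mouse did. So few correlations cannot exclude that same-numbered mice were related. With the replicate block Cd69 was 0.44 ± 0.06 (adjusted p = 0.132), and no other call of a member changed. Scaling moved the split of all called genes. In NOD.LCMV it was 1453 higher and 2490 lower, and 1658 and 1674 with median centring. For the difference between the responses it was 890 and 850, against 1129 and 361 with median centring. Between strains after gp33 it was 2032 and 3354, against 2903 and 2352 with median centring and 2577 and 2818 with a second quantile normalization. Between strains with the control peptide the split was 952 and 1105, and 1230 and 1042 with a second quantile normalization. The cause was not tested. Signal over background was not measured, which limits what dim genes can show.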

Other observations

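The chromosomal neighbours of the 6 genes were examined with the same comparisons as above. Some of these neighbours, such as Vcam1, also stand in the lists described here. Of the 5 measured genes on each side of every member, 60 in all, 6 rose and 8 fell in NOD.LCMV after gp33, where 19.8% of all genes were called, and none was called in NOD.Ln82-LCMV. Cd69 lies among C-type lectin genes of the natural killer gene complex on chromosome 6. Its neighbour Clec2d, the gene for a ligand of an inhibitory natural killer receptor, rose by 0.43 ± 0.09 in NOD.LCMV (adjusted p = 0.00196), and Clec9a, a dendritic cell receptor gene, fell by 0.72 on the log2 scale (SE 0.10, adjusted p = 0.000142). In a chosen list of 14 measured lectin genes of that complex, which holds neither Cd69 nor Clec9a, 2 rose and 1 fell, with a median of 0.06, and 1 was called without the dimmest genes. The gene of that list that fell was Klrd1, the CD94 receptor chain, by 0.71 (SE 0.12, adjusted p = 0.000728). Vcam1, an integrin ligand gene near S1pr1 on chromosome 3, differed by 0.24 ± 0.07 (adjusted p = 0.0193), and this call was lost when NOD.LCMV Db replicate 1 or 2 or gp33 replicate 2 or 3 was left out (adjusted p between 0.0615 and 0.0696). Of the 10 neighbours of Foxo1, 1 rose and 5 fell.

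Markers of other cells that a thymus holds were measured in NOD.LCMV after gp33 as well, where 19.8% of all genes were called. Of 14 dendritic cell and macrophage markers 4 fell and none rose, among them the chemokine receptor gene Xcr1 by 0.67 on the log2 scale (SE 0.08, adjusted p = 2.27e-05) and the phagocytic receptor gene Mertk by 0.53 (SE 0.11, adjusted p = 0.0026). Of 13 thymic epithelium markers 1 rose and 2 fell, and the 3 calls became 6 with array weights, 6 with the replicate block and 5 with only the groups compared. Cd83, which activated lymphocytes also express, rose by 1.20 ± 0.08 (adjusted p = 3.35e-08), and Psmb11, a thymoproteasome subunit gene, fell by 0.53 (SE 0.14, adjusted p = 0.0111). Of 11 natural killer and innate lymphoid markers 4 rose and 1 fell, and 3 were called without the dimmest genes. The largest rises were those of Tbx21, by 3.12 ± 0.13 (adjusted p = 3.32e-10), and Gzmb, by 2.06 ± 0.14 (adjusted p = 6.57e-08), both of which activated CD8 T cells also express.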
